A study of Mus musculus with 68 samples.

Results

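The COUP-TF genes Nr2f1, Nr2f2 and Nr2f6 were followed in pharyngeal arches of mouse embryos. They were taken by their Ensembl identifiers, and all 3 were found among the 21948 genes of the deposited table. Pharyngeal arches are outgrowths on each side of the embryo's pharynx, filled with neural crest and mesoderm cells under an epithelium. The jaws come from the first arch (PA1), and parts of the middle ear and the upper hyoid come from the second (PA2). RNA was sequenced in 68 libraries of 16 groups, which combined 2 arches, 2 genotype labels (wildtype and Hoxa2-/-) and 4 stages (from E9.0 by way of E9.5 and E10.0 to E10.5). All embryos had the same strain label, CBA/Ca/J x C57BL/10, so the labels name no difference between the groups other than genotype, arch and stage. Wildtype PA1 had 5, 5, 5 and 3 libraries in stage order and wildtype PA2 had 4, 4, 5 and 3. Among embryos labelled Hoxa2-/-, PA1 had 4, 5, 5 and 3 libraries and PA2 also had 4, 5, 5 and 3. Of 35 embryos, 33 gave both arches. Values are CPM, reads of a gene relative to the library's total, as the authors scaled them. A called difference had an adjusted p under 0.05 in a limma fit over all 18428 genes tested, and every log2 difference was taken after adding 1 CPM, which understates changes of low genes. Where 2 groups are said not to overlap, this describes their libraries and is not a test. How many of all genes were without overlap between the same groups was not counted.

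COUP-TF proteins are nuclear receptors with no settled natural ligand. They bind DNA through a pair of zinc fingers, as dimers with each other or with retinoid X receptors (RXRs), at repeats of AGGTCA-like half-sites. They often repress transcription, and they can compete with retinoic acid receptors for the same sites. Nr2f1 encodes COUP-TFI, known from the forebrain, the eye and cranial neural crest. Nr2f2 encodes COUP-TFII, known from venous endothelium and from mesenchyme of many organs. Nr2f6 encodes EAR2, the most divergent of these receptors, studied mainly in lymphocytes and in the hindbrain. In the face, COUP-TF genes are known for work in upper jaw development, where they are set against the endothelin pathway that patterns the lower jaw.

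Nr2f1 (ENSMUSG00000069171) lies on the minus strand of GRCm38 at chr13:78188973-78199757, Nr2f2 (ENSMUSG00000030551) on the minus strand at chr7:70351944-70366735, and Nr2f6 (ENSMUSG00000002393) on the minus strand at chr8:71374123-71381960. The 120 bases that open the zinc finger coding sequence are printed 5′ to 3′ from the GENCODE M21 transcripts of that build, because this is where the genes are most alike. Each stretch is coding and lies in 1 exon, at chr13:78198223-78198342, chr7:70359991-70360110 and chr8:71380999-71381118. Capitals mark bases that differ from Nr2f1.
Nr2f1: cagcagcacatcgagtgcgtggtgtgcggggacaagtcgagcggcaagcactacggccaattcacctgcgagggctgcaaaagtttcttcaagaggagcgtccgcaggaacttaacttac
Nr2f2: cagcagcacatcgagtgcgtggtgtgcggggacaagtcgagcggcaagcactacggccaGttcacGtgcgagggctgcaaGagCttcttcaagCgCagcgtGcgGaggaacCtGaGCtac
Nr2f6: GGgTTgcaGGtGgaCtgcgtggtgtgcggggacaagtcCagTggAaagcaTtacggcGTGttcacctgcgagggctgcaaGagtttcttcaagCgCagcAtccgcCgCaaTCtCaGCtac
Nr2f2 differed from Nr2f1 at 12 of these bases and Nr2f6 at 26. The longest run shared by the Nr2f1 and Nr2f2 transcripts was 59 bases, the opening of this stretch. Nr2f6 shared at most 23 bases with either. The transcripts compared were 3207, 4222 and 2218 bases long.

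Each gene also overlaps another on the opposite strand, and whether counting used strand is not stated in the sources used here. Exons of Nr2f1 share 123 bases with A830082K12Rik, and those of Nr2f2 share 643 with B130024G19Rik. Nr2f6 shares 1622 of its 2983 exonic bases with Ocel1. These neighbours were lower than the COUP-TF genes, at 3.60 to 18.6 CPM for A830082K12Rik, 1.18 to 9.17 CPM for B130024G19Rik and 4.35 to 15.3 CPM for Ocel1. Their values are given beside the results they touch.

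Libraries held 8912251 to 20619153 recovered reads, and each COUP-TF gene had 188 to 1385 reads in every library, far above the 3 reads taken as a floor. Hoxa2, the gene named by the label, was at 16.8 to 147 CPM in PA2 and at most 0.926 CPM in PA1. It was not lower under the Hoxa2-/- label. In PA2 at E10.0 it stood at 42.7 to 53.7 CPM in wildtype and at 87.2 to 113 CPM under the label (1.02, adjusted p = 1.1e-04). The labels do not describe the allele, and transcript outside a deleted part would be counted, so the level cannot check the genotype. Leaving aside E10.0, the 24 wildtype libraries stood apart from the other 44, with 17 genes higher and 2 lower without overlap, none of them a COUP-TF gene. Except at E10.0, the genotype label and this division of libraries therefore cannot be told apart. At E10.0 both labels were on the same side of it. Yolk sac markers exceeded 20 CPM in 7 libraries, and erythroid markers reached 53866 CPM in wildtype PA2 at E9.0 replicate 2. Tissue of a whole arch was sequenced, so fewer cells of a type and less RNA per cell cannot be told apart.

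The arch difference of Nr2f1 changed during this period, and both arches expressed the gene throughout. In wildtype embryos its mean started higher in PA1, a gap not called in the main fit, and ended 2.29-fold higher in PA2. At E9.0 wildtype PA1 libraries had 37.8, 39.2, 49.0, 36.2 and 39.9 CPM, and PA2 libraries 25.6, 32.7, 24.8 and 34.5 CPM. All 4 PA2 values lay below all 5 PA1 values. The log2 difference of -0.45 missed the threshold (adjusted p = 0.070, interval -0.81 to -0.09). It passed with the embryo as a block, which uses that both arches come from the same embryos (-0.44, adjusted p = 0.045), and when the 2 groups were fitted alone (adjusted p = 0.026). At this stage 18.7% of all genes tested were called between the arches. Cranial neural crest markers were higher in PA1 without overlap, at 455 to 495 CPM in PA1 and 324 to 361 CPM in PA2. Cardiac muscle markers summed to 13.4 to 32.6 CPM in PA1 and 29.2 to 892 CPM in PA2. The part of these markers in the result was not tested.

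At E9.5 the wildtype arches were not separated for Nr2f1. PA1 libraries had 34.9, 19.8, 48.5, 37.8 and 22.9 CPM, and PA2 libraries 36.7, 42.8, 30.2 and 37.1 CPM. The groups overlapped and the log2 difference was 0.22 (interval -0.14 to 0.58, adjusted p = 0.40, 26.3% of all genes called). The SD of PA1, 11.6 CPM, was the largest of any group for this gene.

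At E10.0 the arches were separate. PA1 libraries had 26.7, 23.2, 21.5, 24.9 and 22.2 CPM, and PA2 libraries 47.8, 57.0, 53.4, 39.99 and 40.4 CPM. Every PA2 value exceeded every PA1 value, and the mean was 2.01-fold higher. The log2 difference was 0.97 ± 0.17 (SE, adjusted p = 4.1e-05), at a stage when 5.94% of all genes tested were called. Cranial neural crest markers were higher in PA1 without overlap, at 569 to 677 CPM in PA1 and 406 to 469 CPM in PA2. Other lists were higher in PA2 without overlap. Markers of migrating crest and glia summed to 12.6 to 19.8 CPM in PA1 and 23.7 to 39.6 CPM in PA2. Neural markers summed to 1.33 to 4.64 and 5.46 to 15.6 CPM, and cardiac muscle markers to 2.64 to 5.28 and 7.53 to 64.6 CPM. Epithelial markers overlapped, at 538 to 755 and 595 to 782 CPM. The part of these markers in the result was not tested.

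At E10.5 the gap was wider still. PA1 libraries had 30.1, 32.8 and 28.7 CPM and PA2 libraries 66.2, 69.1 and 74.7 CPM. The log2 difference was 1.17 ± 0.22 (SE, adjusted p = 2.9e-04), while 1.52% of all genes tested were called. Within embryos, PA2 was lower in 4 of 4 pairs at E9.0 and higher in 3 of 4, 5 of 5 and 3 of 3 at the later stages.

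**Figure D1:**
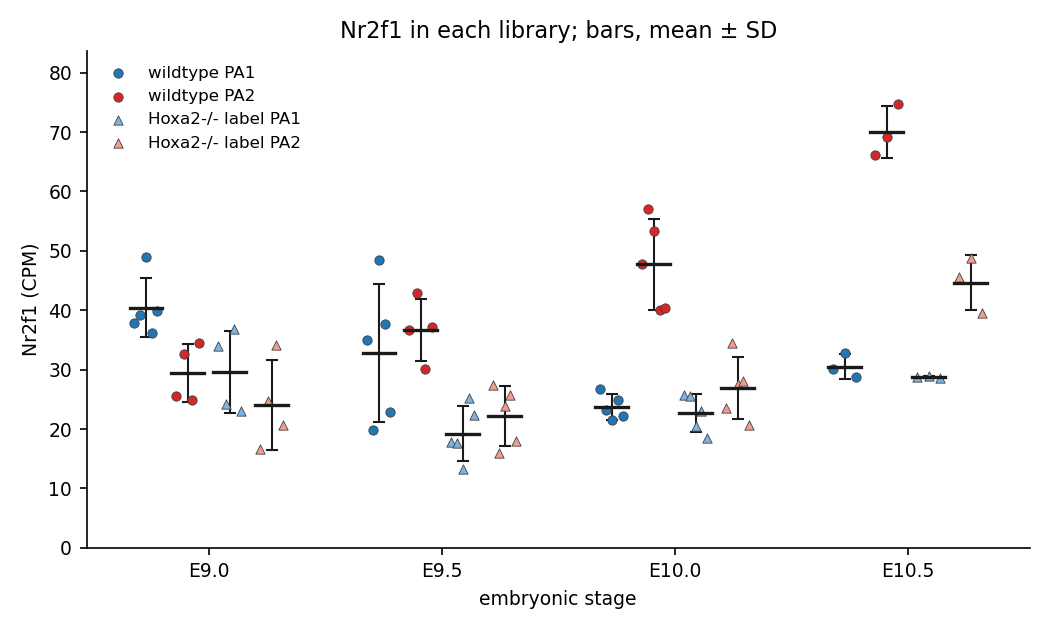
Nr2f1 in CPM (y axis) by stage (x axis) for wildtype (circles) and Hoxa2-/- labelled (triangles) libraries of PA1 (blue) and PA2 (red), each point a library, with the mean and SD as bars. Wildtype PA2 goes from 24.8 to 34.5 CPM at E9.0 to 66.2 to 74.7 CPM at E10.5, and the 3 labelled PA2 libraries at E10.5 stay between 39.5 and 48.8 CPM.

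In wildtype the rise in PA2 was called, and the fall in PA1 was not called in the main fit. Between E9.0 and E10.5 wildtype PA2 went from 29.4 ± 4.91 to 70.0 ± 4.33 CPM (SD), a log2 change of 1.24 (adjusted p = 2.3e-06). Wildtype PA1 went from 40.4 ± 4.98 to 30.5 ± 2.07 CPM without overlap, a log2 change of -0.39 that did not pass (adjusted p = 0.11). This change passed when the 2 groups were fitted alone (adjusted p = 0.0065). Of all genes tested, 36.9% were called between these stages in wildtype PA2 and 42.5% in wildtype PA1, so a change with stage was common. A change in the arch difference was rarer, called for 3.35% of genes. For Nr2f1 that change was 1.62 ± 0.28 log2 units (SE, adjusted p = 1.2e-04). Of the steps tested in wildtype PA2, the rise from E9.5 to E10.5 was called (0.92, adjusted p = 3.3e-04, against 34.3% of all genes) and that from E9.0 to E9.5 was not (0.31, adjusted p = 0.30).

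The arch difference of A830082K12Rik, on the other strand, also turned. It was at 7.60 ± 1.70 CPM in wildtype PA2 at E9.0 and 16.7 ± 1.71 CPM at E10.5, and its arch difference changed by 1.17 log2 units (adjusted p = 0.0011). Its part in the Nr2f1 values was not tested.

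In embryos labelled Hoxa2-/- the Nr2f1 mean was also lower in PA2 than in PA1 at E9.0 and higher at E10.5. At E9.0 labelled PA1 had 34.0, 24.3, 36.8 and 23.1 CPM and labelled PA2 had 16.6, 24.8, 34.2 and 20.7 CPM. The highest of these PA2 values came from replicate 3, the library with the most yolk sac marker signal, 217 CPM. At E10.5 labelled PA1 had 28.7, 28.9 and 28.6 CPM and labelled PA2 had 45.7, 48.8 and 39.5 CPM, with no overlap. None of the 4 arch comparisons passed under this label. The log2 differences were -0.31, 0.20, 0.22 and 0.61 in stage order, with adjusted p of 0.25, 0.52, 0.55 and 0.21. In the same order 24.6%, 9.58%, 4.23% and 1.37% of all genes were called. The change of the arch difference between E9.0 and E10.5 was 0.92 ± 0.29 (SE, adjusted p = 0.041), against 7.33% of all genes. It was lost when any of 9 of the 14 libraries was left out, with values of 0.77 to 0.92 and adjusted p of 0.061 to 0.099. These were all 3 E10.5 PA1 libraries, E10.5 PA2 replicates 1 and 2, E9.0 PA1 replicates 1 and 3, and E9.0 PA2 replicates 1 and 4. It was also lost with edgeR on the recovered reads (0.90, adjusted p = 0.061) and when its 4 groups were fitted alone (adjusted p = 0.13). Labelled PA2 rose between E9.0 and E10.5 by 0.91 (adjusted p = 4.3e-04, 30.9% of all genes called), and labelled PA1 changed by -0.01 (adjusted p = 0.97, 31.2% called). No single step of labelled Nr2f1 passed. In PA1 the log2 changes from E9.0 to E9.5, to E10.0 and to E10.5 were -0.60, 0.25 and 0.34 (adjusted p = 0.053, 0.46 and 0.59), when 2.85%, 4.4% and 0.298% of all genes were called. In PA2 they were -0.09, 0.27 and 0.73 (adjusted p = 0.76, 0.42 and 0.093), against 16.9%, 4.57% and 0.239%. The last step left no overlap in either arch.

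**Figure D2:**
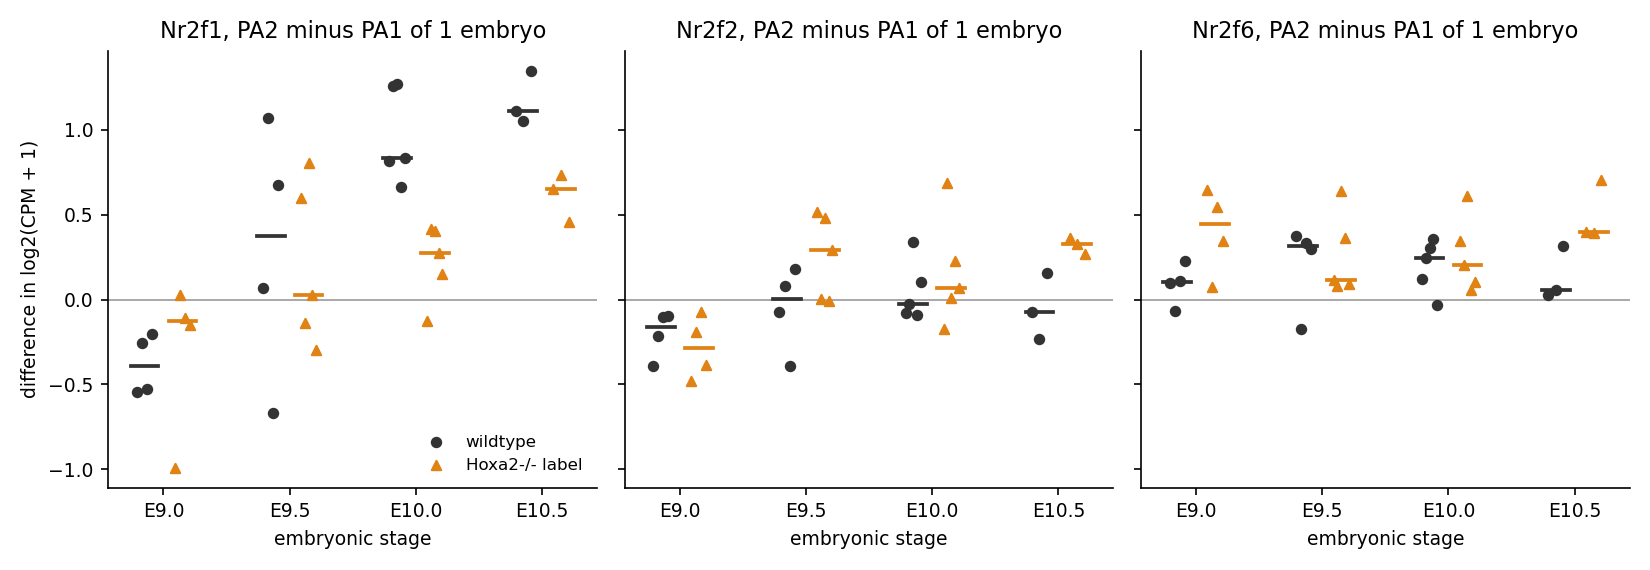
Difference in log2(CPM + 1) between PA2 and PA1 of the same embryo (y axis) by stage (x axis) for the COUP-TF genes, each point 1 of the 33 embryos with both arches, with the median as a line, in black for wildtype and orange for the Hoxa2-/- label. Nr2f1 climbs from a wildtype median of -0.39 at E9.0 to 1.11 at E10.5, whereas Nr2f6 is above 0 in 30 of 33 embryos.

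The label comparison asks whether the level of each gene depends on Hoxa2, a homeobox gene that gives PA2 its identity. Nr2f1 was lower under the label in PA2 at E10.0, the stage at which both labels lay on the same side of the library division. Wildtype PA2 had 39.99 to 57.0 CPM (47.7 ± 7.62, SD) and labelled PA2 had 23.5, 34.4, 27.6, 28.1 and 20.7 CPM (26.9 ± 5.21). All 5 labelled values were below all 5 wildtype values, and labelled PA2 was close to PA1 of either label, at 22.7 ± 3.16 and 23.7 ± 2.11 CPM. The log2 difference was -0.81 ± 0.17 (SE, adjusted p = 0.018). Only 15 of 18428 genes, 0.0814%, were called in this comparison, and Nr2f1 ranked 13 by p-value.

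The size of this difference held under every alternative, at -0.90 to -0.73, but its call did not. Leaving out wildtype replicate 1, 2 or 3 or labelled replicate 1 or 5 gave -0.81 to -0.73 with adjusted p of 0.058 to 0.13. Fitting only the compared groups gave an adjusted p of 0.060, and leaving out the 7 libraries rich in yolk sac markers gave -0.79 with an adjusted p of 0.16. Across the labels in PA2 at E10.0, neural crest markers summed to 406 to 469 CPM in wildtype and 454 to 531 CPM under the label, and endothelial markers to 153 to 292 and 194 to 311 CPM. Their part in the result was not tested. A830082K12Rik had a log2 difference of -0.20 here (adjusted p = 0.74).

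In PA1 at E10.0 Nr2f1 did not differ detectably between the labels. Labelled PA1 had 25.8, 25.6, 20.6, 23.1 and 18.5 CPM, of which 3 were inside and 2 below the wildtype range, and the log2 difference was -0.07 (interval -0.41 to 0.27, adjusted p = 1.0). No gene was called in this comparison by limma or by edgeR, and 424 had an unadjusted p under 0.05. Subtracting the label effect of PA1 from that of PA2 gave -0.75 at E10.0, with an interval of -1.23 to -0.26. Its unadjusted p was 0.0030, and the adjusted p over all genes was 1.0, with 0.0163% of genes called. So the lower Nr2f1 was not shown to be particular to PA2.

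At the other stages the label comparison is crossed with the library division. Nr2f1 was lower under the label at E9.5 in both arches, from 32.8 ± 11.6 to 19.2 ± 4.65 CPM in PA1 (-0.70, adjusted p = 0.0021) and from 36.7 ± 5.18 to 22.2 ± 4.99 CPM in PA2 (-0.72, adjusted p = 0.012). In those comparisons 23.6% and 4.48% of all genes were called. When its 2 groups were fitted alone the PA1 call was lost (adjusted p = 0.078). The PA2 call was lost without wildtype PA2 replicate 2 or labelled PA2 replicate 2 (-0.64 to -0.61, adjusted p = 0.053 to 0.061).

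In PA2 at E10.5 Nr2f1 stood at 70.0 ± 4.33 CPM in wildtype and 44.7 ± 4.71 CPM under the label, without overlap (-0.64, adjusted p = 0.049, 10.3% of all genes called). Leaving out any of the 6 libraries ended this call (-0.71 to -0.56, adjusted p = 0.074 to 0.18), as did the embryo block (adjusted p = 0.057). At E9.0 neither arch passed (-0.46 in PA1 and -0.31 in PA2, adjusted p = 0.20 and 0.29, with 2.08% and 14% of genes called), nor did PA1 at E10.5 (-0.08, adjusted p = 0.92, 3.05% called). The mean was lower under the label in all 8 comparisons. The label effects of the arches differed by 0.15 at E9.0, by -0.02 at E9.5 and by -0.56 at E10.5, none of them called (0%, 0.0109% and 0.038% of all genes).

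**Figure D3:**
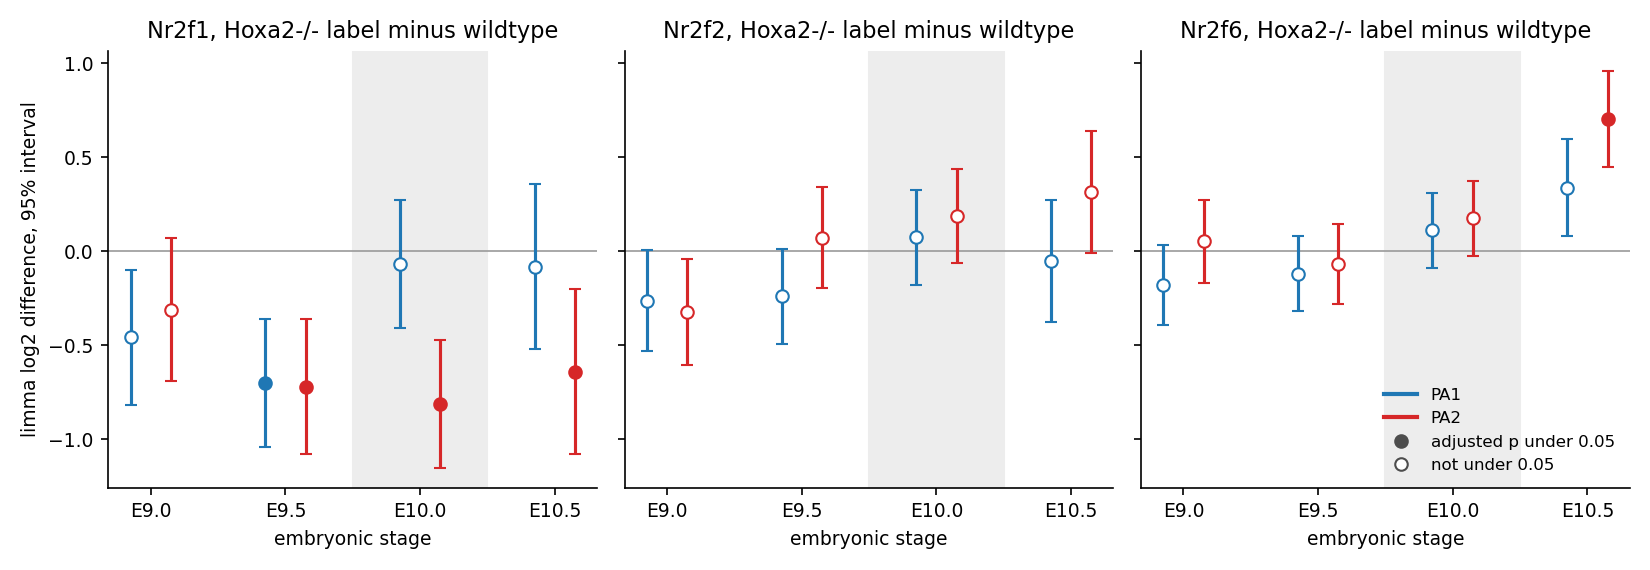
Limma log2 difference between Hoxa2-/- labelled and wildtype libraries (y axis, bars are 95% intervals) by stage (x axis) in PA1 (blue) and PA2 (red), filled where the adjusted p is under 0.05; the shaded E10.0 is the stage with both labels on the same side of the library division. Nr2f1 in PA2 lies below 0 at every stage, at -0.81 in E10.0, while Nr2f2 is filled nowhere.

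Ranked over the 16 groups, Nr2f1 had 1 clear step. Wildtype PA2 at E10.5 was highest, followed by wildtype PA2 at E10.0 (47.7 CPM) and labelled PA2 at E10.5 (44.7 CPM), and labelled PA1 at E9.5 was lowest (19.2 ± 4.65 CPM). Of 15 neighbouring pairs in this order, the top pair alone differed by more than the larger SD of the pair and did not overlap.

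Nr2f2 was the steadiest of the genes in wildtype embryos and was not called between the arches. Its wildtype means lay between 46.9 ± 9.05 CPM in PA2 at E9.0 and 61.9 ± 4.50 CPM in PA1 at E10.5. At E10.5 wildtype PA1 had 66.2, 62.3 and 57.2 CPM and PA2 had 62.8, 52.9 and 63.9 CPM, overlapping throughout. None of the 8 arch comparisons passed, with log2 differences of -0.28 to 0.32 and adjusted p of 0.14 or more. For the widest gap, under the label at E10.5, the groups did not overlap, and the interval ran from -0.0041 to 0.64. PA2 was lower in 4 of 4 embryos of each label at E9.0. At E10.5 it was higher in 1 of 3 wildtype and in 3 of 3 labelled embryos. The arch difference at E10.5 minus that at E9.0 was 0.17 in wildtype (adjusted p = 0.78) and 0.60 under the label (adjusted p = 0.071), and the latter passed with the embryo block (adjusted p = 0.022).

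Under the Hoxa2-/- label Nr2f2 rose in PA2. Labelled PA2 had 37.2, 43.8, 33.1 and 34.2 CPM at E9.0 and 69.9, 45.0, 57.9, 67.9 and 59.7 CPM at E9.5. At E10.0 the values were 64.9, 95.2, 68.2, 63.9 and 61.2 CPM, and at E10.5 76.8, 74.9 and 72.1 CPM. Every later value lay above all those of E9.0. Between E9.0 and E10.5 the mean rose 2.01-fold, a log2 change of 1.00 ± 0.15 (SE, adjusted p = 5.3e-07, against 30.9% of all genes). Most of the rise came by E9.5 (0.67, adjusted p = 4.2e-04, against 16.9% of all genes). That first step did not pass when its 2 groups were fitted alone (adjusted p = 0.12).

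In labelled PA1 Nr2f2 went from 52.2, 50.1, 34.8 and 44.8 CPM at E9.0 to 59.6, 59.4 and 59.6 CPM at E10.5. The log2 change was 0.40 (adjusted p = 0.039, 31.2% of all genes called). The call was lost without any of the E10.5 libraries, or without E9.0 replicate 3 or 4 (0.28 to 0.40, adjusted p = 0.061 to 0.19). Wildtype PA2 changed by 0.36 (adjusted p = 0.056) and passed without E10.5 replicate 2 or E9.0 replicate 5 (0.44 to 0.48, adjusted p = 0.015 to 0.044). Wildtype PA1 changed by 0.19 (interval -0.10 to 0.48, adjusted p = 0.31). The rise under the label was not tested against that in wildtype.

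Nr2f2 marks venous endothelium in many tissues. Over the same interval in labelled PA2, endothelial markers went from 181 to 480 CPM at E9.0 to 202 to 255 CPM at E10.5. Venous and lymphatic markers went from 127 to 338 to 274 to 313 CPM, and neural crest markers from 317 to 453 to 533 to 569 CPM. Their part in the Nr2f2 rise was not tested. B130024G19Rik, which shares exonic bases with Nr2f2, rose in the same group from 2.76 ± 0.66 to 5.62 ± 0.97 CPM.

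No label difference of Nr2f2 passed in any of the 8 comparisons, with log2 differences of -0.32 to 0.32 and a lowest adjusted p of 0.12. In PA2 at E10.5 all 3 labelled values lay above the wildtype ones (0.32, adjusted p = 0.22, 10.3% of all genes called). At E10.0, where the labels share a side of the division, PA1 had 50.9 to 67.1 CPM in wildtype and 54.6 to 73.2 CPM under the label, and PA2 had 54.9 to 66.0 and 61.2 to 95.2 CPM. The intervals of the log2 difference were -0.18 to 0.33 in PA1 and -0.06 to 0.44 in PA2. In the order of its 16 group means Nr2f2 ran from 37.1 ± 4.80 CPM in labelled PA2 at E9.0 to 74.6 ± 2.38 CPM in labelled PA2 at E10.5. No neighbouring pair was without overlap.

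Nr2f6 was higher in PA2 than in PA1 by a small margin nearly everywhere, and fell late in wildtype embryos. PA2 exceeded PA1 in 13 of 16 wildtype embryos and in 17 of 17 labelled embryos, and the group mean was higher in PA2 in all 8 comparisons. The margin was called at E9.0 and E10.5 under the label, in comparisons where 24.6% and 1.37% of all genes were called. At E9.0 labelled PA1 had 43.2, 54.2, 42.5 and 39.6 CPM and labelled PA2 had 68.1, 57.2, 62.5 and 50.6 CPM, with 1 PA2 value inside the PA1 range (0.40, adjusted p = 0.0054). Fitted alone, those groups did not pass (adjusted p = 0.10).

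At E10.5 labelled PA1 had 36.8, 37.4 and 30.3 CPM and labelled PA2 had 48.8, 49.4 and 50.1 CPM, without overlap (0.50, adjusted p = 0.025). This call was lost without PA1 replicate 3 or any of the PA2 libraries (0.40 to 0.51, adjusted p = 0.078 to 0.28). At E10.0 the labelled groups did not overlap either, and the log2 difference of 0.26 missed the threshold (adjusted p = 0.12, 4.23% of all genes called). At E9.5 the difference under the label was also 0.26 (adjusted p = 0.090), and it passed with the embryo block (adjusted p = 0.039). In wildtype the log2 differences were 0.17, 0.20, 0.20 and 0.13 in stage order, with adjusted p of 0.15 or more.

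The wildtype fall of Nr2f6 came between E9.5 and E10.5. Wildtype PA1 had 48.4, 56.7, 46.7, 51.7 and 52.8 CPM at E9.5 and 26.5, 27.2 and 28.0 CPM at E10.5. Wildtype PA2 had 63.2, 50.3, 59.0 and 65.1 CPM at E9.5 and 27.1, 28.2 and 35.1 CPM at E10.5. The stages did not overlap in either arch. The log2 changes were -0.89 (adjusted p = 9.0e-09, 40.9% of all genes called) in PA1 and -0.96 (adjusted p = 8.5e-09, 34.3% called) in PA2. Between E9.0 and E9.5 the changes were 0.02 and 0.05, neither called (6.73% and 6.68% of all genes). These 3 wildtype stages lie on the same side of the library division. Over the same interval in wildtype, epithelial markers went from 703 to 903 CPM to 454 to 539 CPM in PA1 and from 793 to 1043 CPM to 387 to 441 CPM in PA2. Endothelial markers went from 206 to 269 to 151 to 178 CPM in PA1 and from 241 to 314 to 163 to 181 CPM in PA2. Cranial neural crest markers rose, from 440 to 513 to 626 to 730 CPM in PA1 and from 386 to 412 to 524 to 650 CPM in PA2. Their part in the fall was not tested. Wildtype E10.0, on the other side, had 44.5 ± 4.33 CPM in PA1 and 51.3 ± 5.88 CPM in PA2.

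Under the Hoxa2-/- label Nr2f6 ended higher. From E9.0 to E10.5 labelled PA1 fell from 44.9 ± 6.38 to 34.8 ± 3.93 CPM (-0.35, adjusted p = 0.020, 31.2% of all genes called). This call was lost without E10.5 replicate 3 or E9.0 replicate 2 (-0.26 in each case, adjusted p = 0.11 to 0.16). Labelled PA2 went from 59.6 ± 7.47 to 49.4 ± 0.62 CPM (-0.26, adjusted p = 0.099), and passed without E9.0 replicate 4 (-0.33, adjusted p = 0.042). At E10.5 PA2 had 27.1 to 35.1 CPM in wildtype and 48.8 to 50.1 CPM under the label. The log2 difference was 0.70 ± 0.13 (SE, adjusted p = 1.4e-04, 10.3% of all genes called). PA1 did not overlap between the labels either at this stage (0.34, adjusted p = 0.15). Here label and library division cannot be told apart. At E10.0 the label differences were 0.11 in PA1 (interval -0.09 to 0.31) and 0.18 in PA2 (interval -0.02 to 0.38), with adjusted p of 1.0 and 0.68.

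Ocel1, the neighbour that overlaps Nr2f6, fell with it in wildtype. Between E9.0 and E10.5 Ocel1 changed by -0.78 in PA1 (adjusted p = 4.1e-04) and -0.70 in PA2 (adjusted p = 0.0027), from 9.60 ± 1.48 to 5.17 ± 0.77 CPM and from 9.08 ± 0.97 to 5.21 ± 0.76 CPM. At E10.5 in PA2 it was also higher under the label (0.76, adjusted p = 0.0098). Between the arches Ocel1 did not pass in any of the 8 comparisons. Ranked over the groups, Nr2f6 was lowest in both wildtype arches at E10.5 and had 1 gap without overlap, between wildtype PA1 at E10.0 and labelled PA1 at E10.5 (34.8 CPM).

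**Figure D4:**
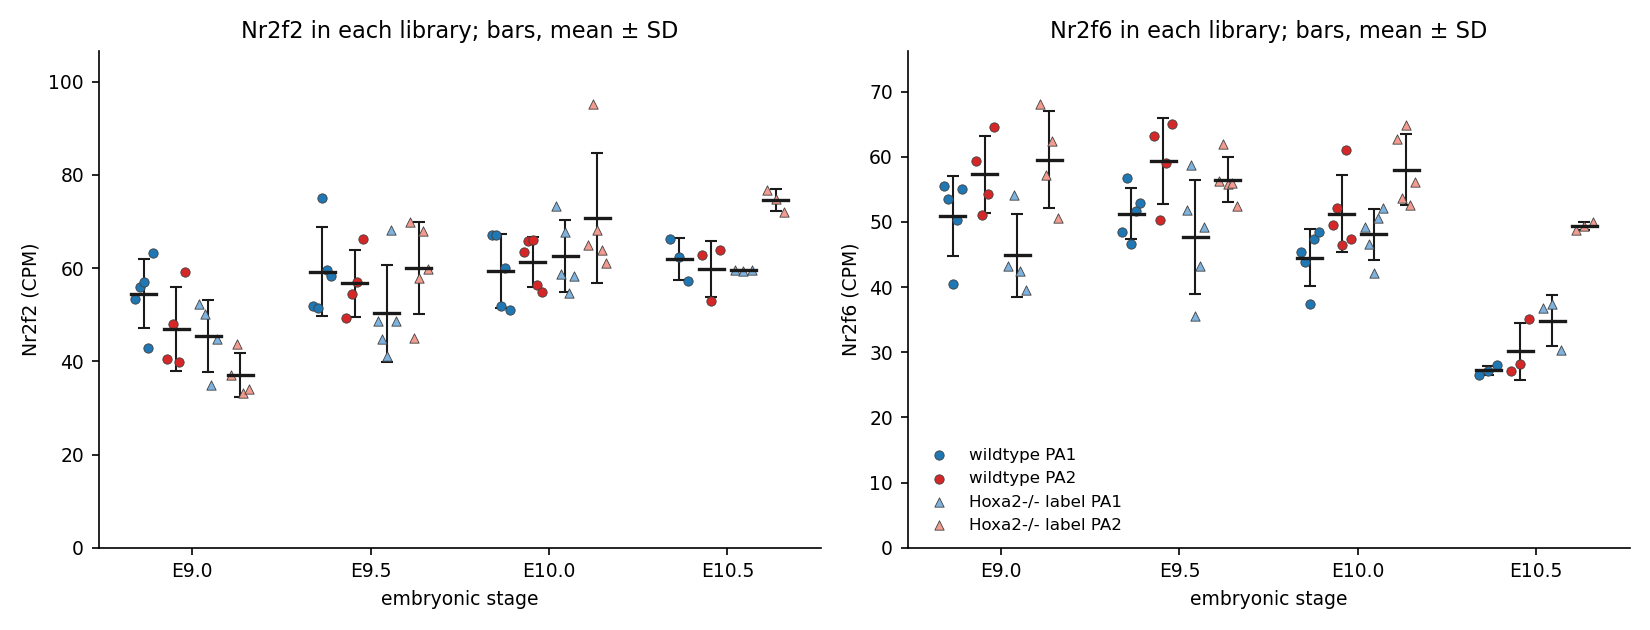
Nr2f2 (left) and Nr2f6 (right) in CPM (y axes) by stage (x axes), with each point a library, circles for wildtype, triangles for the Hoxa2-/- label, blue for PA1 and red for PA2, and bars for mean and SD. Nr2f6 drops to 26.5 to 28.0 CPM in wildtype PA1 at E10.5, while labelled PA2 stays at 48.8 to 50.1 CPM, and 1 labelled PA2 library at E10.0 reaches 95.2 CPM for Nr2f2.

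Per kilobase of merged exons, Nr2f6 was the most abundant of the genes in 15 of 16 groups, at 9.13 to 19.97 CPM per kilobase. All annotated exons of a gene were merged, giving 5093 bases for Nr2f1, 8625 for Nr2f2 and 2983 for Nr2f6. Of the Nr2f6 bases, 1622 are shared with Ocel1. The transcripts compared above are shorter, at 3207, 4222 and 2218 bases, and the order of the genes depends on the length used. Nr2f1 ranged from 3.78 to 13.7 and Nr2f2 from 4.30 to 8.65 CPM per kilobase. Wildtype PA2 at E10.5 was the group in which Nr2f1 came first. The COUP-TF genes did not share a pattern. Over the 16 group means of log2(CPM + 1) the correlation (Pearson r) was 0.32 for Nr2f1 with Nr2f2, -0.32 for Nr2f1 with Nr2f6 and -0.23 for Nr2f2 with Nr2f6. These points share embryos, scaling and stage, and the values are descriptions.

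Among 2922 or 2923 other genes that varied over the groups, those most like Nr2f1 were Hmcn1 (r = 0.82), which encodes an extracellular matrix protein, Mn1 (0.80), a transcriptional coregulator needed for the palate, Lypd1 (0.79), Ntm (0.73) and Tnnt1 (0.73). The most opposite were Plekha7 (-0.84), Rasgef1b (-0.81) and Tbx3 (-0.78), a T-box transcription factor. Mn1 was at 56.8 CPM in wildtype PA2 at E10.5, against 23.1 CPM in its lowest group. Nr2f2 was most like Skida1 (0.92), E2f2 (0.90), Arnt2 (0.90), Nhsl2 (0.88) and Clip2 (0.88), and most opposite to Tnnt3 (-0.88), Wfdc2 (-0.88) and Cd59a (-0.87). Nr2f6 was most like Cadm1 (0.92), Fam19a5 (0.89), Prr5 (0.89), Ppp2r5a (0.89) and Cxxc5 (0.89), and most opposite to Tmem256 (-0.92), Itm2a (-0.92) and Stom (-0.91). Each r is over the 16 group means. By rank (Spearman rho) the likeness to Nr2f1 was weaker for most of its genes. It was 0.84 for Hmcn1, 0.69 for Mn1, 0.60 for Lypd1, 0.42 for Ntm and 0.56 for Tnnt1. For the opposite genes it was -0.80 for Plekha7, -0.68 for Rasgef1b and -0.54 for Tbx3.

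The sites to which Hox and related proteins bind were looked for by their letters in the 300-base promoter windows of RefSeq on GRCm38.p6. TGATNNAT, a Hox-Pbx type motif, was in none of the 4 windows of the COUP-TF genes on either strand, against 8.85% of 32851 windows. TGACAG, a Meis type motif, was also in none (19.2% of all windows), and so was AGGTCA, the nuclear receptor half-site (16.3%). Absence from these windows says only that the letters are not there.

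COUP-TF proteins pair with RXRs and compete with retinoic acid receptors. Of 12 NR2 relatives and retinoid receptors, 9 were tested. Between the wildtype arches 1, 3, 1 and 1 of them were higher in PA2 and 2, 1, 0 and 1 lower, in stage order. The median log2 difference was -0.09 to 0.19, against -0.02 to 0.01 over all genes. Of all genes tested, 10.2%, 12.7%, 4.51% and 0.868% were higher and 8.53%, 13.7%, 1.43% and 0.651% lower. Rxrg, which encodes an RXR, stood higher in PA2 whatever the stage or label. In wildtype at E10.5 it was at 3.04 ± 0.16 CPM in PA1 and 8.86 ± 0.31 CPM in PA2 (1.29, adjusted p = 2.9e-04). Rarg, a retinoic acid receptor gene, was lower in wildtype PA2 at first, with 33.8 ± 2.79 CPM in PA1 and 13.6 ± 2.17 CPM in PA2 at E9.0 (-1.26, adjusted p = 2.4e-07), and -0.53 at E9.5 (adjusted p = 0.021). By E10.5 its arches were at 40.5 ± 4.31 and 45.5 ± 1.29 CPM. None of these 9 genes was called between the labels at E10.0 in either arch.

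Of 6 COUP-TF cofactors, all tested, 1 was higher in wildtype PA2 at E9.0, the same 1 at E9.5, and none later, near the 10.2% and 12.7% of all genes called higher at those stages. That gene was Zfpm1, which encodes a zinc finger partner of GATA factors (1.16 and 0.93, adjusted p = 0.018 and 0.049). None was called between the labels at E10.0.

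Retinoic acid can change the expression of COUP-TF genes, and genes of its synthesis and breakdown were counted. Of 12 tested, 6, 5, 3 and 1 were higher in wildtype PA2 in stage order and 3, 2, 0 and 1 lower, against 10.2%, 12.7%, 4.51% and 0.868% higher and 8.53%, 13.7%, 1.43% and 0.651% lower of all genes. The median log2 difference was 0.43 at E9.0 and 0.24 at E10.5. Rdh10, which makes the retinal that is turned into retinoic acid, passed as higher in PA2 in all 8 arch comparisons. In wildtype it was at 12.6 ± 2.28 against 30.9 ± 3.66 CPM at E9.0 and at 21.5 ± 2.55 against 34.5 ± 8.62 CPM at E10.5. The retinoic acid degrading enzymes went opposite ways at E9.0 in wildtype. Cyp26b1 was at 0.66 ± 0.30 CPM in PA1 and 8.03 ± 2.20 CPM in PA2, and Cyp26c1 at 21.0 ± 2.77 and 3.63 ± 1.59 CPM. No gene of this list was called between the labels at E10.0.

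COUP-TF genes are known from the upper jaw, so genes of the upper and lower jaw programmes were counted beside them. Of 8 upper jaw genes, 2, 2, 3 and 1 were higher in wildtype PA2 in stage order and 1 was lower at each stage. The shares of all genes were 10.2%, 12.7%, 4.51% and 0.868% higher and 8.53%, 13.7%, 1.43% and 0.651% lower. Meis2, a TALE homeobox gene whose product works with Hox proteins, was called higher in wildtype PA2 from E9.5 on. In wildtype it was level between the arches at E9.0 (123 ± 6.07 and 120 ± 6.64 CPM) and higher in PA2 by 1.06 at E10.5 (83.7 ± 3.75 and 175 ± 6.54 CPM, adjusted p = 2.1e-16). In PA2 at E10.0 it was at 160 ± 16.4 CPM in wildtype and 115 ± 5.89 CPM under the label (-0.47, adjusted p = 6.3e-07). For Meis2 the label effects of the arches differed at E10.0 (-0.49, adjusted p = 0.0013). It was the only upper jaw gene called in either comparison at E10.0. Fgf8, a growth factor gene, was called higher in wildtype PA2 at 1 stage and lower at 3. It was at 21.5 ± 1.34 CPM in PA1 and 33.5 ± 2.59 CPM in PA2 at E9.0. By E10.5 it was lower in PA2 (20.2 ± 2.78 and 4.81 ± 1.19 CPM, -1.88, adjusted p = 9.8e-08). Jag1 was called higher in wildtype PA2 at 3 stages.

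Of 12 lower jaw genes, 4, 2, 3 and 3 were lower in wildtype PA2 in stage order and 0, 2, 1 and 0 higher, with medians of -0.43 to -0.14. Of all genes, 8.53%, 13.7%, 1.43% and 0.651% were lower and 10.2%, 12.7%, 4.51% and 0.868% higher, so the counts at E9.5 were near the background. Msx1, a homeobox gene of the growing distal mesenchyme, was at 365 ± 48.4 CPM in PA1 and 125 ± 21.2 CPM in PA2 at E10.5 (-1.54, adjusted p = 2.8e-06). None of the 12 was called between the labels at E10.0.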

How the data were processed

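Arches were dissected by hand, and their polyA RNA was amplified by SMART-seq v4 and tagged with Nextera XT, per the labels' protocols. The submitters' processing notes name bcl2fastq 2.18, TopHat2 2.1.1, R 3.3.2 and the build mm10, with no roles given. No molecular identifiers are named for this amplified cDNA, so floors cover counting error only. The values the authors deposited resemble CPM and were treated as a signal, because column totals ran from 926298 to 1051959. The design had assumed plain CPM, and the tests were kept. All deposited values were whole multiples of 1 read (100% within 0.001 reads), which gave recovered reads per library.

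Genes with at least 1 CPM in at least 3 libraries were kept, 18428 of 21948. Tests used log2(CPM + 1) in limma 3.58.1 (R 4.3.3), with 16 group means over 68 libraries and a trended prior variance. Tests were two-sided, with Benjamini-Hochberg adjustment over all kept genes in each of 36 contrasts. All adjusted p-values are from this fit unless edgeR or another alternative fit is named. Replicates are separate embryos, per the series text.

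The COUP-TF genes, the lists and the rule for named genes were chosen with earlier results of these data known. Named genes are the COUP-TF genes, Hoxa2, the 5 most alike and 3 most opposite genes per member by Pearson r over group means (at least 5 CPM in a group an SD of at least 0.3, and no Gm or Rik symbol), and up to 4 list genes called the same way at 2 or more stages, of which some are given. Overlapping neighbours were added. Nr2e1 and Hnf4g are not among the genes analysed here.

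PA1 and PA2 of the same label, stage and number come from 1 embryo, per the series text. Their deviations from group means correlated with a median of 0.35 over 33 pairs (30 over 0.1), against -0.12 over 116 pairs of different embryos. Deviations cancel within a group, so positive correlations within embryos push those between embryos down. The value between embryos is therefore not an independent baseline. One alternative blocked on the embryo. Others were a pseudocount of 0.25 or 5, dropping the filter or raising it to 5 CPM, scaling by the median of ratios, the quasi-likelihood test of edgeR 4.0.16 on recovered reads, only the compared groups, each library left out in turn, and, chosen after seeing the data, leaving out 7 libraries with over 20 CPM of yolk sac markers. The limma steps were also tried on simulated counts for a single contrast, wildtype PA2 against PA1 at E10.0. Those counts were drawn without embryo pairs or the library division, so the other contrasts were not tested in this way.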

Additional observations from a re-analysis of the deposited data

Results flagged for a closer look

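In PA2 labelled Hoxa2-/- at E10.0, Nr2f2 was at 95.2 CPM in replicate 2 and at 61.2 to 68.2 CPM in the other 4 libraries, farther from them than expected of a group of 5. Of 36 groups of 4 or 5 libraries tested for the COUP-TF genes, 1 was picked out in this way, and chance alone picks out about 1 in 20. Nr2f1 was also highest in that library, at 34.4 CPM against 20.7 to 28.1 CPM, while Nr2f6, at 53.7 CPM, was within its group's range of 52.7 to 64.9 CPM.

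The arch difference of Nr2f1 at E10.5 differed from that at E9.0 by 1.62 log2 units in wildtype (limma, adjusted p = 1.2e-04) and by 0.92 under the Hoxa2-/- label (adjusted p = 0.041). PA2 was lower than PA1 in 4 of 4 wildtype and 3 of 4 labelled embryos at E9.0, and higher in 3 of 3 embryos of each label at E10.5.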

How the results depend on the processing

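Of 108 results for the COUP-TF genes, 22 passed, and 12 of these passed under every alternative run. The share of all genes called differed widely between contrasts, from 0% between the labels in PA1 at E10.0 to 42.5% between E9.0 and E10.5 in wildtype PA1. Between E9.0 and E10.5 it was 30.9% or more in each arch and label, so passing there was common. Of the 86 that did not pass, 72 did not pass under any. No result that passed changed direction. Each COUP-TF gene had at least 188 reads in every library, and what depth limits was not tested. The cause of the changes below was not tested beyond the smaller number of samples or genes in some fits.

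Fitted with the compared groups alone, Nr2f1 passed in the wildtype arch comparison at E9.0 (-0.45, adjusted p = 0.026), the labelled one at E10.5 (0.61, 0.015) and wildtype PA1 between E9.0 and E10.5 (-0.39, 0.0065), and Nr2f2 passed between the labels in PA2 at E10.5 (0.32, 0.048). The same fit lost Nr2f1 between the labels in PA1 at E9.5 (-0.70, 0.078) and PA2 at E10.0 (-0.81, 0.060), its labelled change of arch difference (0.92, 0.13), the labelled Nr2f6 arch difference at E9.0 (0.40, 0.10) and the first step of Nr2f2 in labelled PA2 (0.67, 0.12). With the replicate block on the embryo, the wildtype Nr2f1 arch difference at E9.0 (-0.44, 0.045), the labelled Nr2f6 one at E9.5 (0.26, 0.039) and the labelled Nr2f2 change of arch difference (0.60, 0.022) passed, and Nr2f1 between the labels in PA2 at E10.5 did not (-0.64, 0.057). The block changed no other call. That last result was also lost with no filter (-0.64, 0.054) and a pseudocount of 0.25 (-0.65, 0.056). The Nr2f1 step from E9.0 to E9.5 in labelled PA1 passed with that pseudocount (-0.62, 0.050), edgeR (-0.61, 0.050) and a filter of 5 CPM (-0.60, 0.046). The Nr2f6 step from E10.0 to E10.5 in labelled PA1 passed with that filter (-0.46, 0.047) and a pseudocount of 5 (-0.42, 0.043). EdgeR lost the labelled Nr2f1 change of arch difference (0.90, 0.061). Leaving out the libraries rich in yolk sac markers lost Nr2f1 between the labels in PA2 at E10.0 (-0.79, 0.16). Median-of-ratios scaling changed no call.

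With 1 library left out at a time, 16 results changed side. For Nr2f1 the label difference in PA2 ranged from -0.81 to -0.61 at E9.5, from -0.90 to -0.73 at E10.0 and from -0.71 to -0.56 at E10.5. Its labelled change of arch difference ranged from 0.77 to 1.10, its step from E9.0 to E9.5 in labelled PA1 from -0.70 to -0.48 and that from E10.0 to E10.5 in labelled PA2 from 0.64 to 0.82. For Nr2f2 the E9.0 to E10.5 difference ranged from 0.28 to 0.47 in labelled PA1 and from 0.29 to 0.48 in wildtype PA2. Its step from E9.5 to E10.0 in labelled PA1 ranged from 0.26 to 0.43, its label difference in PA1 at E9.5 from -0.35 to -0.15, its labelled arch difference at E9.0 from -0.40 to -0.21 and its labelled change of arch difference from 0.53 to 0.72. For Nr2f6 the E9.0 to E10.5 difference ranged from -0.41 to -0.26 in labelled PA1 and from -0.33 to -0.19 in labelled PA2, and the labelled arch difference from 0.16 to 0.34 at E9.5 and from 0.40 to 0.55 at E10.5.

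Over all genes, the number called between the labels in PA2 at E10.0 was 15, and 8 to 23 under the alternatives. The embryo block raised the wildtype arch counts from 1095 to 1784 at E10.0 and from 280 to 455 at E10.5. Fitting the compared groups alone lowered the label count in PA2 at E9.0 from 2585 to 15 and the E9.0 to E9.5 count in labelled PA2 from 3119 to 5.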
